A study of Mus musculus with 8 samples.

Results

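The genes described here are those of the NRF2 pathway, the oxidative stress response that is controlled by the transcription factor encoded by Nfe2l2. They were taken by symbol as Nfe2l2, its inhibitor Keap1 and 8 target genes (Nqo1, Hmox1, Gclc, Gclm, Txnrd1, Srxn1, Slc7a11 and Osgin1), 10 genes in all of the 55401 in the deposited tables. The cells were AML12, a mouse hepatocyte line established from a liver carrying a human transforming growth factor alpha transgene and grown in medium with serum, dexamethasone, insulin, transferrin and selenite. RNA was sequenced from 4 control dishes and 4 dishes kept for 1 h under Opti-ELF-WMF (ELF-WMF in the plots), a pulsed magnetic field with a peak of 100 mG, a pulse width of 4 ms and a frequency stepping from 1 to 8 Hz. Control dishes came from the same batch of cells and stood over a coil that was switched off, but in another incubator of the same model, so the field and the incubator cannot be told apart.

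NRF2 protein is made continuously and, in unstressed cells, bound by KEAP1, which hands it to a CUL3 and RBX1 ubiquitin ligase for destruction by the proteasome. Oxidants and electrophiles modify cysteines of KEAP1, NRF2 then accumulates, pairs with a small MAF protein and binds antioxidant response elements near its target genes. These genes serve the synthesis of glutathione, the thioredoxin system, the supply of NADPH, the breakdown of haem and the detoxification of quinones, and in the liver they shape the defence against drugs and reactive metabolites. Because the control acts mostly on NRF2 protein, the mRNA of the targets is the usual readout of the pathway in expression data.

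The deposited values were TPM, a transcript level corrected for gene length and scaled to the same total in every dish, so sequencing depth is unknown and the counting error of a value cannot be given. The number of genes above 0 TPM lay between 19386 and 20114 per dish. The 8 hepatocyte markers examined were all present, with Hnf4a at 180.28 to 217.95 TPM and Alb, the plasma albumin gene, at only 46.12 to 58.22 TPM. Their summed level was 5447 to 5711 TPM in control and 5806 to 6019 TPM in exposed dishes, without overlap. Krt8 and Krt18, with means of 2305 and 1967 TPM over all dishes, weighed most in this sum and were higher in every exposed dish. The markers did not move as 1 class. Apoe, Trf and Hnf4a were higher on average, whereas Alb (49.7 against 55.1 TPM), Ttr (348.4 against 358.3 TPM) and Apoa1 (3.77 against 4.54 TPM) were lower. The part of these differences in the results below was not tested. Of 4 cholangiocyte markers 3 were above 1 TPM on average, Krt19 among them at 1101.36 to 1243.58 TPM, whereas Epcam was at most 0.13 TPM. The summed level of 5 macrophage markers was at most 2.52 TPM, of 5 stellate cell or fibroblast markers at most 1.85 TPM and of 4 endothelial markers at most 0.09 TPM, and Adgre1, Clec4f, Lrat and Cdh5 were at 0 in every dish. As these are bulk libraries, a lower number of cells with a transcript and less of that transcript per cell cannot be told apart.

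The NRF2 pathway was expressed unevenly in AML12 cells. Gclc stood highest with a mean over the 8 dishes of 343.6 TPM, above 96.6% of the tested genes. It was followed by Gclm (223.3 TPM), Txnrd1 (143.0 TPM), Nfe2l2 (137.1 TPM) and Osgin1 (119.2 TPM). Keap1 (37.5 TPM), Hmox1 (35.2 TPM) and Srxn1 (33.1 TPM) formed a middle group, whereas Slc7a11 (2.87 TPM) and Nqo1 (0.739 TPM) were close to the limit of testing. The ranges over dishes overlapped between Txnrd1 and Nfe2l2 and among Keap1, Hmox1 and Srxn1, and no other neighbours in this order overlapped. Nqo1, the gene of a quinone reductase, is commonly used as a marker of NRF2 activity.

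**Figure D1:**
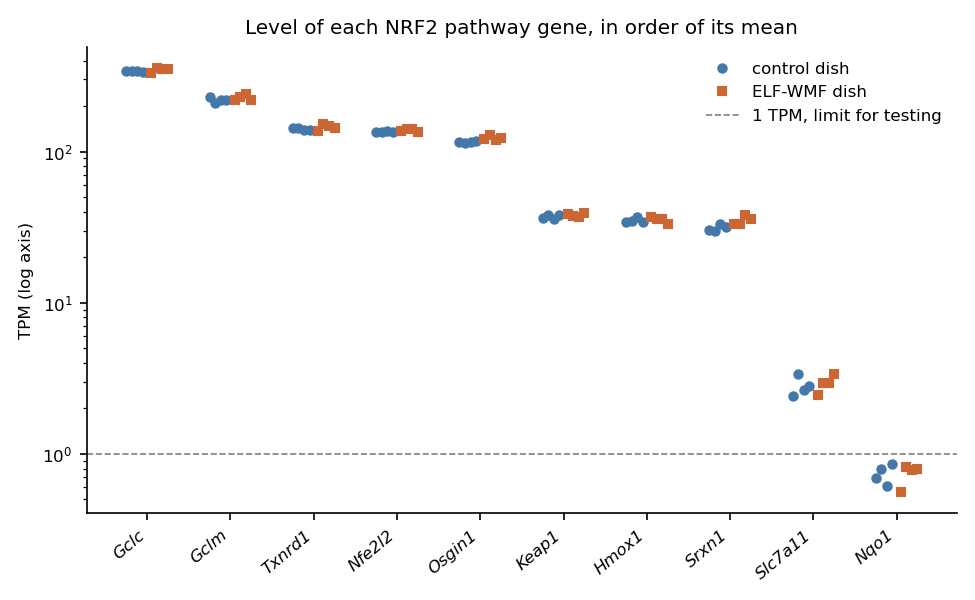
TPM of each NRF2 pathway gene (log axis) in order of its mean, with circles for the 4 control dishes, squares for the 4 Opti-ELF-WMF (ELF-WMF) dishes and a dashed line at 1 TPM, the limit for testing. The levels run from 343.6 TPM for Gclc to 0.739 TPM for Nqo1, and the dishes of each gene lie close together compared with the distances between genes.

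The comparison of the 2 conditions asked whether 1 h of Opti-ELF-WMF was accompanied by a change in these transcripts. After filtering at 1 TPM in at least 4 dishes, 9 of the 10 genes were tested among 12122, and Nqo1 was not. The smallest adjusted p-value among the 9 was 0.202 (limma on log2(TPM + 1), Benjamini-Hochberg over all tested genes), and 0 of the 12122 genes were under 0.05 (0.00%), although 1894 were by unadjusted p-value. By unadjusted p-value, Srxn1 and Osgin1 were under 0.05, both with higher levels in Opti-ELF-WMF dishes, which is 2 of 9 genes against 15.6% of all tested genes in either direction and 12.0% in the higher direction. The lower direction held none of the 9 and 3.65% of all tested genes. With so few genes, a count of 2 is close to that background. Separation without any overlap of control and exposed dishes was seen for 1 of the 9 genes, Osgin1, with higher values under exposure. Among all tested genes 9.87% were so separated, 8.01% with higher and 1.86% with lower values. The differences of the 9 genes ran from 0.01 to 0.16 on the log2(TPM + 1) scale with a median of 0.040, whereas the median of all tested genes was 0.026.

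**Figure D2:**
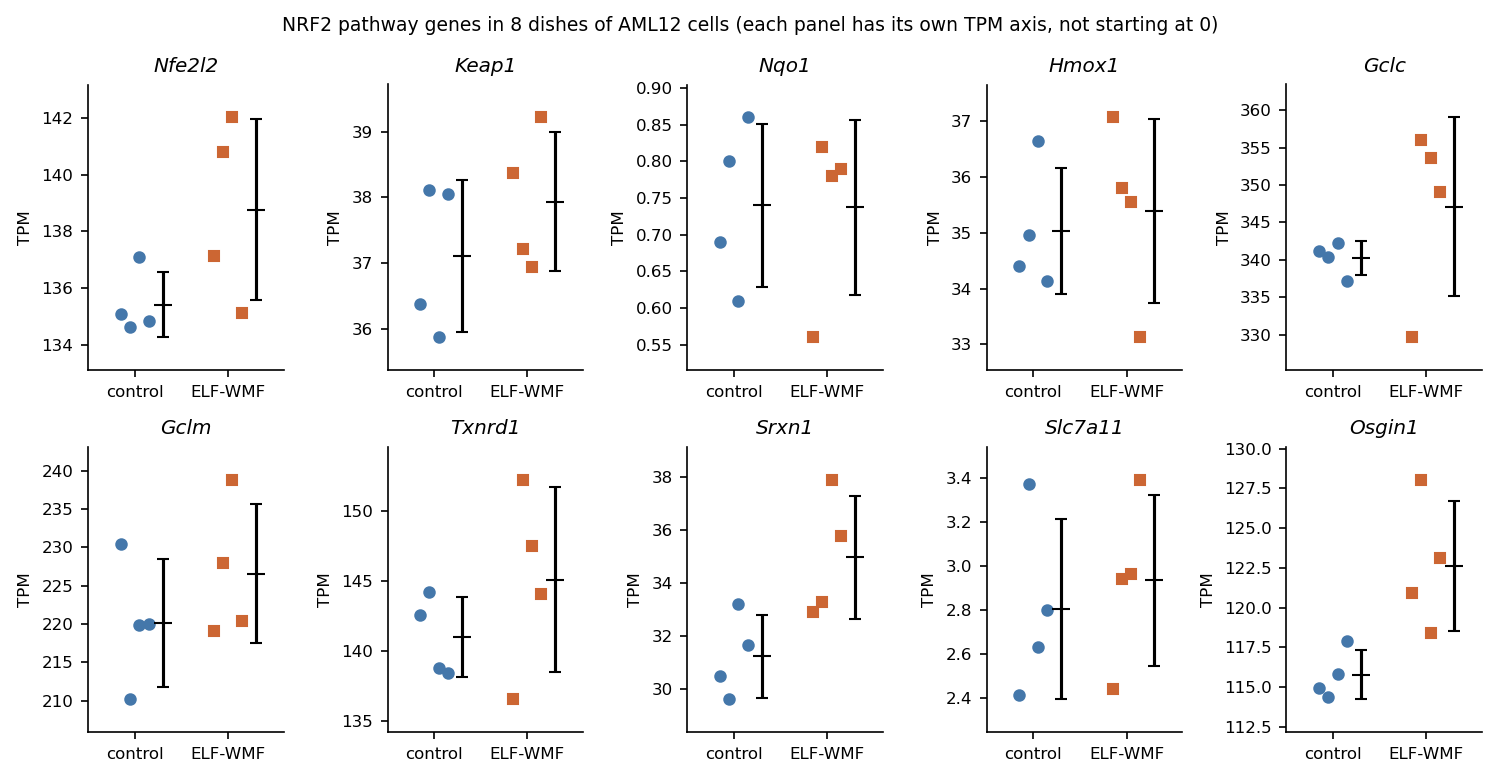
TPM of each of the 10 NRF2 pathway genes in the control (circles) and Opti-ELF-WMF (squares) dishes, with the mean and SD (n = 4) beside each group and a separate axis per gene that does not start at 0. Only for Osgin1 do all Opti-ELF-WMF dishes, from 118.43 TPM, lie above all control dishes, which reach 117.92 TPM.

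All 9 differences were positive, where 63.7% of all tested genes were, and this depended on the scaling of the values. The share of TPM taken by genes of the mitochondrial chromosome averaged 8.94% ± 0.34 (SD, n = 4) over the controls and 7.04% ± 0.76 (SD, n = 4) over the Opti-ELF-WMF dishes, which leaves more of the fixed total to all other genes. After median-of-ratios scaling the median of all tested genes was -0.0013 and that of the 9 pathway genes 0.011, with 7 of 9 positive. When TPM were rescaled without the mitochondrial genes, the pathway median was 0.010 with 7 of 9 positive, and with upper-quartile scaling it was 0.0063 with 6 of 9 positive. Of all tested genes 49.2%, 49.1% and 47.0% were positive in that order. The share of higher genes among all those with an unadjusted p-value under 0.05 went from 76.6% on the deposited values to 47.1%, 50.7% and 42.3% in that order. Under each of these scalings 1 pathway gene, Srxn1, had an unadjusted p-value under 0.05, against 11.8%, 11.3% and 11.5% of all tested genes in that order. No pathway gene was free of overlap, against 7.62%, 7.08% and 7.40% of all tested genes.

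**Figure D3:**
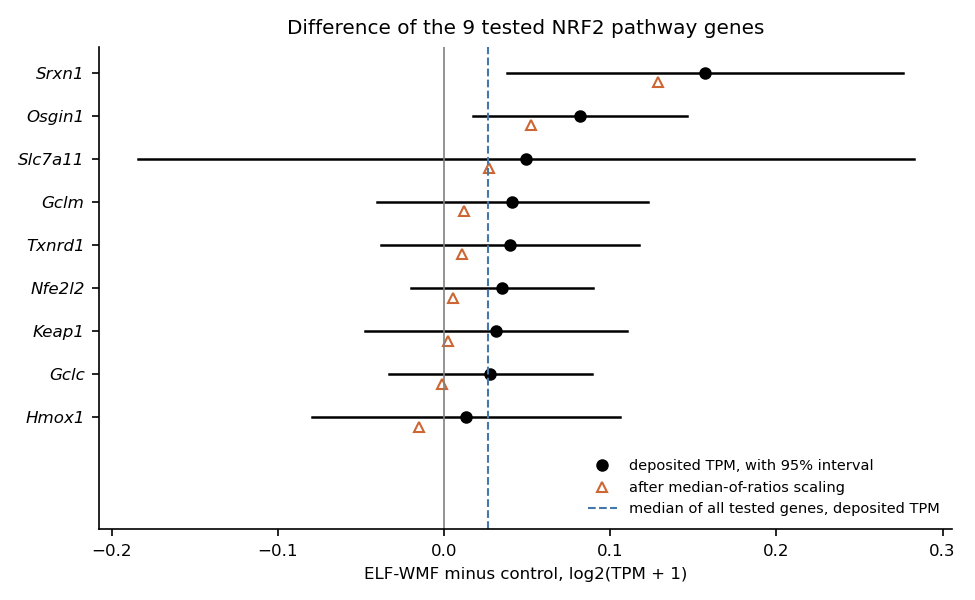
Difference of the 9 tested NRF2 pathway genes, Opti-ELF-WMF minus control on the log2(TPM + 1) scale, with filled circles and 95% intervals for the deposited TPM, open triangles for the values after median-of-ratios scaling, and a dashed line at the median of all tested genes (0.026). The intervals of Srxn1 and Osgin1 lie above 0, those of the other 7 genes include it, and the triangles of Gclc and Hmox1 lie below 0.

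Nfe2l2, on chromosome 2 from 75675513 to 75704641 (GRCm38, minus strand), encodes NRF2 itself. It was measured at 135.11, 134.62, 137.11 and 134.84 TPM in control dishes 1 to 4 and at 137.14, 140.79, 142.01 and 135.13 TPM in Opti-ELF-WMF dishes 1 to 4. Opti-ELF-WMF dishes 1 to 3 were above every control dish, dish 1 by a very small margin, and dish 4 was not. The difference was 0.03 (95% interval -0.02 to 0.09, unadjusted p = 0.187, adjusted p = 0.539, limma), and the exact permutation p was 0.0571. In the 3 other scalings the difference was only 0.0012 to 0.0055. Keap1, on chromosome 9 from 21229730 to 21239361 (minus strand), encodes the sensor that holds NRF2 down. Its values of 36.37, 38.12, 35.87 and 38.06 TPM in control dishes and 38.37, 37.22, 36.94 and 39.22 TPM in Opti-ELF-WMF dishes were interleaved. The difference was 0.03 (95% interval -0.05 to 0.11, adjusted p = 0.725, limma) and became -0.0016 with upper-quartile scaling. Leaving out 1 dish moved it between 0.0156 without Opti-ELF-WMF dish 4 or control dish 3 and 0.0441 without control dish 2. The ratio of Nfe2l2 to Keap1 TPM within a dish was 3.65 ± 0.14 (SD, n = 4) in control and 3.66 ± 0.18 (SD, n = 4) in Opti-ELF-WMF dishes (two-sided exact permutation p = 0.943).

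NRF2 binds DNA at the antioxidant response element, whose core is TGACNNNGC, and promoter windows of 300 bases from RefSeq (GRCm38.p6, from 250 bases before to 50 bases after the gene start) were searched for it on both strands. Windows were found for 8 of the 10 genes, all but Hmox1 and Gclc. The core was present for 4 of these 8 genes (Nfe2l2, Gclm, Txnrd1 and Srxn1), while 13.99% of the 27025 genes with windows held it. This is a description of letters in a short window. The parts before the start are shown for Nfe2l2 (chr2:75704714-75704913, minus strand) and Gclm (chr3:122245307-122245506, plus strand), which carry a match, and for Srxn1 (chr2:152105274-152105473, plus strand) and Osgin1 (chr8:119436897-119437096, plus strand), the genes with the smallest p-values. Each sequence is written 5′ to 3′ on the strand of its gene, from 250 to 51 bases before the start, with the core in capitals. The RefSeq start used for Osgin1 lies inside the gene as annotated by GENCODE, so its sequence is not upstream of every Osgin1 transcript.
Nfe2l2: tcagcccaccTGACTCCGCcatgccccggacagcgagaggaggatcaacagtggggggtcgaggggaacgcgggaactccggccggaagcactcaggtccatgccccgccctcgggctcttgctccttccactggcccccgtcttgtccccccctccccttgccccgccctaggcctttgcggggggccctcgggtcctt
Gclm: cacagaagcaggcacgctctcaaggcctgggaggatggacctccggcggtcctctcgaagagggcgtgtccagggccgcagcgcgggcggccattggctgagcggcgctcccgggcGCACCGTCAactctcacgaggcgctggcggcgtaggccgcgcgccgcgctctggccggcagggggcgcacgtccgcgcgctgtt
Srxn1: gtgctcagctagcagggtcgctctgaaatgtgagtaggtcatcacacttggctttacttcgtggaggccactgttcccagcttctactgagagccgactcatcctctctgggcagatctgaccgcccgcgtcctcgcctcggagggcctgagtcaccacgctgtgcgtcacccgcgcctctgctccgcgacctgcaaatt
Osgin1: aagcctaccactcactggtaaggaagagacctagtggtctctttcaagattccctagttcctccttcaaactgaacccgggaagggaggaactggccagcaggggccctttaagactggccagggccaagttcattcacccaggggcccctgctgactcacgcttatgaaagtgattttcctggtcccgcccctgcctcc

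The Nfe2l2 match began at position -240 from the gene start, on the gene's strand. The Gclm match, on the opposite strand, began at position -134. In Srxn1 the match (GCTAGGTCA, opposite strand) began at position 29, outside the part shown, and in Txnrd1 only the second of its 3 windows held one (GCTTTGTCA, opposite strand, position -92). Srxn1 thus had a match in its window and Osgin1 had none.

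Srxn1, on chromosome 2 from 152105516 to 152111376 (plus strand), encodes sulfiredoxin, which restores over-oxidised peroxiredoxins. It was measured at 30.48, 29.60, 33.21 and 31.64 TPM in control dishes and at 32.92, 33.27, 37.90 and 35.78 TPM in Opti-ELF-WMF dishes. Opti-ELF-WMF dishes 3 and 4 were clearly above all controls, dish 2 was just above them, and dish 1 was below control dish 3. The mean was 31.2 ± 1.6 (SD, n = 4) against 35.0 ± 2.3 (SD, n = 4) TPM, a difference of 12.0% in TPM and of 0.16 on the log2 scale (SE 0.05, 95% interval 0.04 to 0.28). The unadjusted p-value was 0.0151 and the adjusted p-value 0.202 (limma), and the exact permutation p was 0.0571, where 0.0286 is the smallest that 4 dishes against 4 allow over 70 assignments. Its unadjusted p-value was under 0.05 in all 16 alternatives run, with a range from 0.00267 to 0.0486, and its adjusted p-value was above 0.05 in each.

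Osgin1, on chromosome 8 from 119434124 to 119446256 (plus strand), encodes an oxidative stress-induced growth inhibitor. Control dishes gave 114.94, 114.40, 115.84 and 117.92 TPM, and Opti-ELF-WMF dishes gave 120.93, 128.04, 118.43 and 123.12 TPM. The groups did not overlap, although the gap between control dish 4 and Opti-ELF-WMF dish 3 was small. The means of 115.8 ± 1.5 (SD, n = 4) and 122.6 ± 4.1 (SD, n = 4) TPM differed by 5.92% in TPM and by 0.08 on the log2 scale (SE 0.03, 95% interval 0.02 to 0.15). The unadjusted p-value was 0.0181, the adjusted p-value 0.216 (limma) and the exact permutation p 0.0286. The difference was between 0.048 and 0.053 in the 3 other scalings, where the groups overlapped and the unadjusted p-value was 0.0544 to 0.0765 (limma). It was thus under 0.05 in 13 of the 16 alternatives.

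The other gene of the thioredoxin branch, Txnrd1 (chromosome 10 from 82833951 to 82897712, plus strand), encodes cytosolic thioredoxin reductase, a selenoprotein. Its values were 142.57, 144.21, 138.80 and 138.41 TPM in control dishes and 136.53, 152.20, 147.50 and 144.04 TPM in Opti-ELF-WMF dishes. Opti-ELF-WMF dish 1 was the lowest of all 8 and dish 2 the highest. The difference was 0.04 (95% interval -0.04 to 0.12, adjusted p = 0.636, limma), and 0.0063 to 0.0107 in the 3 other scalings.

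Gclc (chromosome 9 from 77754535 to 77794485, plus strand) and Gclm (chromosome 3 from 122245557 to 122270732, plus strand) encode the catalytic and the modifier subunit of glutamate-cysteine ligase, the rate-limiting enzyme of glutathione synthesis. Gclc was at 341.17, 340.37, 342.26 and 337.11 TPM in control dishes and at 329.65, 355.97, 353.57 and 349.07 TPM in Opti-ELF-WMF dishes. Opti-ELF-WMF dish 1 was below every control dish and the other 3 were above every control dish, so the spread was wider in the exposed group (SD 12.0 against 2.2 TPM, n = 4). The Gclc difference was 0.03 (95% interval -0.03 to 0.09, adjusted p = 0.678, limma), and it was between -0.0057 and -0.0013 in the 3 other scalings. Gclm was at 230.50, 210.14, 219.82 and 220.04 TPM in control dishes and at 219.03, 227.92, 238.83 and 220.37 TPM in Opti-ELF-WMF dishes, which overlapped widely. Its difference was 0.04 (95% interval -0.04 to 0.12, adjusted p = 0.641, limma), 0.0075 to 0.0119 in the 3 other scalings, and from 0.0156 without Opti-ELF-WMF dish 3 to 0.0635 without control dish 1. An antisense gene, Gm17494 (6.60 TPM on average), overlaps Gclm, and as the use of strand in counting is not given, reads of the 2 genes may not be separated. The ratio of catalytic to modifier subunit in TPM was 1.55 ± 0.06 (SD, n = 4) in control and 1.53 ± 0.05 (SD, n = 4) in Opti-ELF-WMF dishes (two-sided exact permutation p = 0.686).

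Slc7a11 (chromosome 3 from 49892526 to 50443614, minus strand) encodes the light chain of the cystine/glutamate exchanger that brings in cystine for glutathione. It was low, with 2.41, 3.37, 2.63 and 2.80 TPM in control dishes and 2.44, 2.94, 2.96 and 3.39 TPM in Opti-ELF-WMF dishes. The interval of its difference of 0.05 was the widest of the 9 (-0.18 to 0.28, adjusted p = 0.868, limma), and its level was the lowest of the 9. Its difference was -0.0011 without control dish 1 and -0.0055 without Opti-ELF-WMF dish 4. A stretch of 373 bases of Slc7a11, 4.04% of a transcript of 9223 bases, was 95.4% identical to a long noncoding RNA, AC157548.1 (0.399 TPM on average), so a small part of its low value is uncertain. No other gene of the 10 had a same-strand transcript of another gene with at least 95% identity over 150 bases or more.

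Hmox1 (chromosome 8 from 75093621 to 75100589, plus strand) encodes haem oxygenase 1, which opens the haem ring and is among the most inducible targets of the pathway. It was at 34.40, 34.97, 36.65 and 34.14 TPM in control dishes and at 37.07, 35.80, 35.56 and 33.13 TPM in Opti-ELF-WMF dishes. Both the highest and the lowest of the 8 values belonged to Opti-ELF-WMF dishes. The difference was 0.01 (95% interval -0.08 to 0.11, adjusted p = 0.911, limma), the smallest of the 9, and it lay between -0.0195 and -0.0153 in the 3 other scalings. Nqo1 (chromosome 8 from 107388225 to 107403206, minus strand) was at 0.69, 0.80, 0.61 and 0.86 TPM in control dishes and at 0.56, 0.82, 0.78 and 0.79 TPM in Opti-ELF-WMF dishes. No dish reached 1 TPM, and the means were 0.740 ± 0.112 (SD, n = 4) and 0.738 ± 0.120 (SD, n = 4) TPM (two-sided exact permutation p = 0.971). In a fit without the filter its difference was -0.0025 (95% interval -0.17 to 0.17, unadjusted p = 0.974, limma).

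Opti-ELF-WMF dish 1 gave the lowest value of the 4 exposed dishes for 6 of the 10 genes, namely Nqo1, Gclc, Gclm, Txnrd1, Srxn1 and Slc7a11. Its median-of-ratios factor, a measure of the level of genes in general, was 0.990, against 1.009 to 1.034 in the other 3 exposed dishes and 0.982 to 0.995 in control dishes, and the part of this in the values above was not tested. The share of all tested genes with their lowest exposed value in that dish was not computed. For Gclc, Txnrd1 and the others named, leaving out the dish with the lowest exposed value had to raise the difference. Without Opti-ELF-WMF dish 1, 4 of the 9 genes had an unadjusted p-value under 0.05, against 16.2% of all tested genes. Gclc (0.05, unadjusted p = 0.0337) and Txnrd1 (0.07, unadjusted p = 0.0443) then joined Srxn1 and Osgin1, and their smallest adjusted p-value was 0.194 (limma). Without Opti-ELF-WMF dish 2, in contrast, the differences were 0.0156 for Gclc and 0.0166 for Txnrd1. The genes without overlap numbered 3 without Opti-ELF-WMF dish 1 (Gclc, Srxn1 and Osgin1), 3 without control dish 3 and 2 without Opti-ELF-WMF dish 4, where 15.9%, 13.1% and 15.3% of all tested genes were without overlap.

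The wider pathway was described with 60 further genes in 5 lists, of which 54 were tested. Of these, 15 had an unadjusted p-value under 0.05 with higher and 1 with lower levels in Opti-ELF-WMF dishes, 27.8% with higher levels against 12.0% of all tested genes, and none had an adjusted p-value under 0.05 (smallest 0.122, limma). Their median difference was 0.05 against 0.026 for all tested genes. The higher count was 3 with upper-quartile scaling, 5 with median-of-ratios scaling and 9 when TPM were rescaled without mitochondrial genes, which was 5.56%, 9.26% and 16.7% of these genes against 4.85%, 5.55% and 5.72% of all tested genes.

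**Figure D4:**
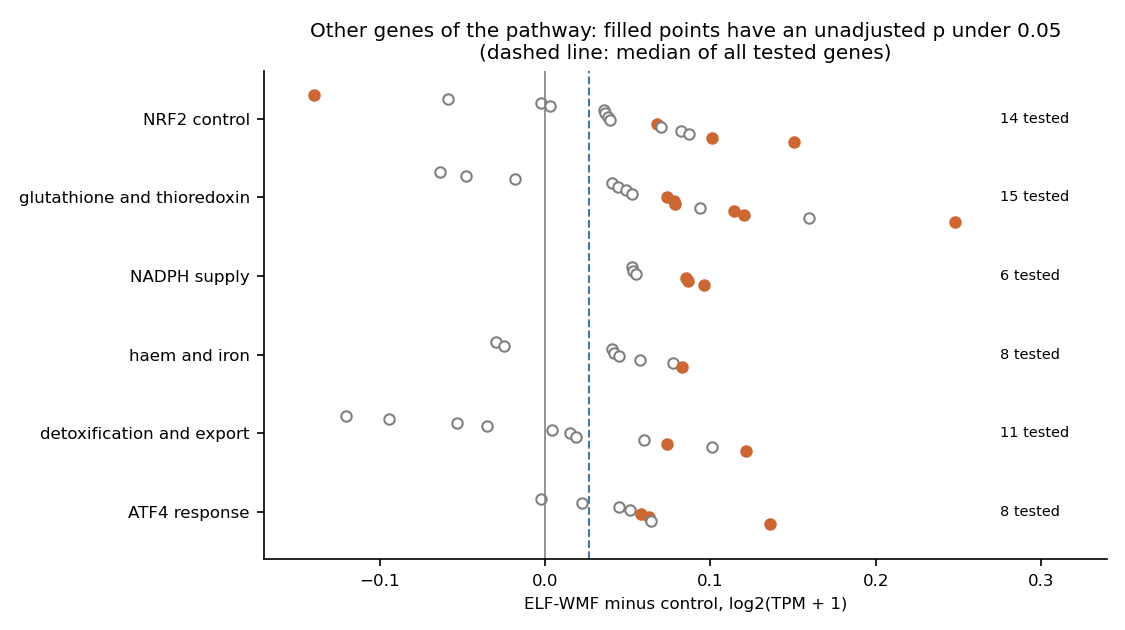
Difference of each tested gene of the 5 NRF2 pathway lists and of the ATF4 list, Opti-ELF-WMF minus control on the log2(TPM + 1) scale, with filled points for an unadjusted p-value under 0.05 and a dashed line at the median of all tested genes (0.026). Mafg, at -0.14, is the filled point on the left, and Gsta1, at 0.25, is the filled point farthest to the right.

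Among 14 genes that act on NRF2, 3 had higher and 1 had lower levels by unadjusted p-value, against 12.0% and 3.65% of all tested genes. The balance turned in the other scalings, with 0 higher and 2 lower genes under upper-quartile scaling and 1 higher and 2 lower in each of the others. It shifted over all tested genes too, where 1451 were higher and 443 lower on the deposited values. With upper-quartile scaling, median-of-ratios scaling and rescaling without mitochondrial genes these were 588 and 801, 673 and 755, and 693 and 675. Mafg encodes a small MAF protein, the partner with which NRF2 binds DNA. It was at 37.21, 38.14, 39.15 and 38.66 TPM in control dishes and at 32.96, 34.59, 34.62 and 36.50 TPM in Opti-ELF-WMF dishes. Every Opti-ELF-WMF dish was below every control dish, with a difference of -0.14 (SE 0.04, unadjusted p = 0.00391, adjusted p = 0.140, limma) that lay between -0.17 and -0.14 in the alternatives that kept all dishes. The other small MAF genes gave 0.00 (Maff) and 0.07 (Mafk), with unadjusted p-values of 0.958 and 0.0669 (limma). Mafk did not overlap either, in the opposite direction to Mafg, with 24.50 to 25.28 TPM in control and 25.51 to 27.25 TPM in Opti-ELF-WMF dishes. Cul3, the scaffold of the ligase that KEAP1 serves, had a difference of 0.10 and Ep300, a coactivator of NRF2, of 0.15 (unadjusted p = 0.0205 and 0.0208, limma). Sqstm1, whose product p62 draws KEAP1 into autophagy, had 328.5 ± 8.8 (SD, n = 4) TPM in control and 344.4 ± 7.6 (SD, n = 4) TPM in Opti-ELF-WMF dishes, without overlap (difference 0.07, unadjusted p = 0.0315, limma). Cul3 and Sqstm1 were above 0.05 in each of the 3 other scalings, and Ep300 in 1 of them. Bach1, the repressor that competes for the same elements, had a difference of 0.09 with an unadjusted p-value of 0.357 (limma).

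Among 15 tested genes of glutathione and thioredoxin metabolism, 6 had higher and 0 had lower levels by unadjusted p-value, against 12.0% and 3.65% of all tested genes. With upper-quartile, median-of-ratios and mitochondria-free scaling the higher genes were 2, 2 and 4, with 1 lower gene each time. The higher genes were 13.3%, 13.3% and 26.7% of the list, against 4.85%, 5.55% and 5.72% of all tested genes. Gsta1, a glutathione S-transferase of the alpha class, was at 33.48, 31.54, 27.96 and 32.30 TPM in control dishes and at 36.25, 40.16, 37.66 and 35.31 TPM in Opti-ELF-WMF dishes. The groups did not overlap, and the difference of 0.25 (SE 0.06, unadjusted p = 0.00209, adjusted p = 0.128, limma) had an unadjusted p-value under 0.05 in all 16 alternatives. The Gsta1 transcript was 99.5% identical to Gm3776 over 874 bases and 97.2% identical to Gsta2 over 870 bases, so reads may have been shared between them and its value is uncertain. Gstp1, of the pi class, had 507.1 ± 13.0 (SD, n = 4) TPM in control and 549.0 ± 12.3 (SD, n = 4) TPM in Opti-ELF-WMF dishes, without overlap (difference 0.11, unadjusted p = 0.00161, adjusted p = 0.122, limma), and had a near-identical copy in Gstp2 (98.2% over 707 bases, 5.63 TPM on average). Slc3a2, the heavy chain that partners the Slc7a11 product, was at 404.62 to 415.48 TPM in control and 425.81 to 433.85 TPM in Opti-ELF-WMF dishes (difference 0.07, unadjusted p = 0.00417, limma). Prdx6 (0.12), Prdx1 (0.08) and Txn1 (0.08), which remove peroxides or reduce disulfides, completed the 6. Prdx1 and Txn1 were above 0.05 in each of the 3 other scalings, Slc3a2 and Prdx6 in 2 of them. By unadjusted p-value Prdx1 was under 0.05 in only 6 of the 16 alternatives and Txn1 in only 5. Gpx2 was at 0 TPM in every dish, Gstm3 was at most 0.24 TPM, and neither was tested.

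The list of NADPH supply, whose enzymes supply the reducing power for glutathione and thioredoxin, had 3 of 6 genes with an unadjusted p-value under 0.05, all with higher levels and no overlap, where 12.0% of all tested genes were higher by that p-value and 8.01% were higher without overlap. The count was 1 with upper-quartile, 1 with median-of-ratios and 3 with mitochondria-free scaling, where 4.85%, 5.55% and 5.72% of all tested genes were higher. Me1, malic enzyme, was at 290.77, 296.48, 301.37 and 296.78 TPM in control dishes and at 319.99, 320.15, 322.59 and 304.80 TPM in Opti-ELF-WMF dishes, a difference of 0.10 (unadjusted p = 0.00350, adjusted p = 0.139, limma). It was under 0.05 by unadjusted p-value in all 16 alternatives. Pgd and Tkt, of the pentose phosphate pathway, had differences of 0.09 each (unadjusted p = 0.00738 and 0.0119, limma) and kept an unadjusted p-value under 0.05 in 1 of the 3 other scalings, the rescaling without mitochondrial genes. G6pdx, at the entry of that pathway, had a difference of 0.05 with an unadjusted p-value of 0.223 (limma).

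Of 8 haem and iron genes only Fth1, the ferritin heavy chain, had an unadjusted p-value under 0.05. That is 12.5% of the list, against 15.6% of all tested genes in either direction and 12.0% in the higher direction. Fth1 was at 5040.67 to 5306.48 TPM in control and 5417.10 to 5558.14 TPM in Opti-ELF-WMF dishes (difference 0.08, unadjusted p = 0.00741, limma), and it was above 0.05 in 2 of the 3 other scalings. Ftl1, the light chain, had a difference of 0.04 (unadjusted p = 0.239, limma) and a near-identical copy (Ftl1-ps1, 99.6% over 910 bases). Blvra, the biliverdin reductase that acts after haem oxygenase, had a difference of 0.06 (unadjusted p = 0.190, limma). Of 11 tested detoxification and export genes, Ugdh (0.07, unadjusted p = 0.00799) and Akr1b8 (0.12, unadjusted p = 0.0410, limma), a dehydrogenase that makes UDP-glucuronate and an aldo-keto reductase, were the 2 with unadjusted p-values under 0.05. That is 18.2% of the 11, against the same 15.6% and 12.0% of all tested genes. Akr1b8 was under 0.05 by unadjusted p-value in only 7 of the 16 alternatives. Those above 0.05 included each of the 3 other scalings (0.0894 to 0.118, limma) and the replicate block (0.0561, limma). They also included the fits without control dish 3 or any of Opti-ELF-WMF dishes 1 to 3 (0.0855 to 0.116, limma). Ugdh was above 0.05 in 2 of the 3 other scalings. Cbr3, Aldh3a1, Cyp2a5 and Ces1g were at or below 1.04 TPM in every dish and were not tested, so Nqo1 was not the only detoxification gene near 0.

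Slc7a11 is also a target of ATF4, the factor of the amino acid response, and 8 genes of that response were examined beside it. Atf4 (0.06), Trib3 (0.14) and Psat1 (0.06) had higher levels with unadjusted p-values under 0.05 and without overlap, 3 of 8 genes, and their smallest adjusted p-value was 0.190 (limma). Of all tested genes 12.0% were higher by that unadjusted p-value and 8.01% were higher without overlap. Trib3, a pseudokinase, was under 0.05 by unadjusted p-value in all 3 other scalings, whereas Atf4 and Psat1 were above it in each. The list thus had 12.5% of its genes higher in each, against 4.85%, 5.55% and 5.72% of all tested genes with upper-quartile, median-of-ratios and mitochondria-free scaling. Ddit3 (0.06) and Chac1 (0.04) had unadjusted p-values of 0.238 and 0.403 (limma). Across the 6 lists, 19 of 62 tested genes were under 0.05 by unadjusted p-value, 30.6% against 15.6% of all tested genes. With upper-quartile, median-of-ratios and mitochondria-free scaling the shares were 11.3%, 14.5% and 22.6%, against 11.5%, 11.8% and 11.3%. Of the 19 genes, 5 stayed under 0.05 in all 3 other scalings, namely Mafg, Gsta1, Gstp1, Me1 and Trib3. Of the NRF2 pathway genes first described, Srxn1 did so. These genes were picked by p-value in the same data, none was under 0.05 by adjusted p-value, and the share of all tested genes that did so was not computed.

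Over the 8 dishes, Sec23ip (Pearson's r = 0.970, Spearman's rho = 0.886) and Kif11 (r = 0.969, rho = 0.905) were among the tested genes whose log2(TPM + 1) was most like that of Nfe2l2. Without Opti-ELF-WMF dishes 2 and 3, the farthest from the Nfe2l2 median, r was 0.784 for Sec23ip and 0.703 for Kif11, so the likeness rests partly on those dishes. The points share their library and its scaling factor, and both genes were picked for their high r among 12122.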

How the data were processed

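RNA-seq of 4 control and 4 exposed dishes was analysed. The authors deposited TPM, 1 table of 55401 genes per dish, and the submitters' processing notes name Trimmomatic 0.39, STAR 2.7.4a, RSEM 1.3.3 and mm10. The annotation and the use of strand in counting are not given in the sources used here. TPM keeps no depth, so no interval for counting error was computed. Genes with TPM of at least 1 in at least 4 dishes were tested with limma 3.58.1 (eBayes with trend, R 4.3.3) on log2(TPM + 1), a scale that understates changes of low genes, and p-values were adjusted by Benjamini-Hochberg over all tested genes. Exact permutation tests were two-sided. The pipeline was tested on simulated data. Alternatives were another pseudocount, 2 other filters, 3 other scalings, no variance trend, a replicate block and leaving out each dish. Gene positions came from GENCODE M21 (GRCm38), which matched 55141 identifiers. Dishes are the replicates and came from a single batch of cells, so p-values measure the spread between dishes only. The 10 genes, the lists and the rule for named genes (every list gene with an unadjusted p-value under 0.05, in a list without one its 2 highest genes, untested list genes, and the 3 genes most like Nfe2l2) were chosen with earlier results of these data known. Other genes, named for their role or as a copy, were chosen after their values were seen. A gene named by this rule is not reported here.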

Additional observations from a re-analysis of the deposited data

Results flagged for a closer look

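Dixon's test at 95% was applied to 60 groups of 4 dishes, namely the 10 NRF2 pathway genes, 19 genes of the lists and the mitochondrial share in each condition. It marked a single far dish in 5 of them, and about 3 would be marked by chance. Nqo1 was 0.56 TPM in Opti-ELF-WMF dish 1, against 0.78 to 0.82 in the others. Txn1 was 281.5 TPM in control dish 1, against 256.02 to 259.33. Tkt was 592.6 TPM in control dish 3, against 616.54 to 617.22. Akr1b8 also had its far value there, with 24.45 TPM beside 27.25 to 27.34. Me1 was 304.8 TPM in Opti-ELF-WMF dish 4, against 319.99 to 322.59.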

How the results depend on the processing

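In the order upper-quartile, median-of-ratios and rescaling without mitochondrial genes, the genes of the whole table with an unadjusted p-value under 0.05 were 588, 673 and 693 higher (1451 on the deposited values) and 801, 755 and 675 lower (443). The NRF2 pathway genes with such a p-value were 1, 1 and 1 (2 on the deposited values), those without overlap 0, 0 and 0 (1), and their median difference 0.0063, 0.0107 and 0.0103 (0.0399). The genes of the 6 lists were 4, 6 and 10 higher (18) and 3, 3 and 4 lower (1). Keap1 became -0.0016 with upper-quartile scaling. In the same order the differences were, for Hmox1, -0.0195, -0.0153 and -0.0157 and, for Gclc, -0.0057, -0.0013 and -0.0017. These scalings change every gene of a dish alike. Dcaf11 and Gsta3 were the genes that joined Mafg as lower in all 3 scalings, and Ephx1 in the last. Without the filter, 832 genes of the table and 2 of the lists were lower by unadjusted p-value, and more genes were tested (25413). With 1 TPM in all 8 dishes, with upper-quartile or median-of-ratios scaling, and without the variance trend, 1 gene of the table had an adjusted p-value under 0.05, namely 1110028F11Rik, named after its value was seen. The cause was not tested.

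Same-numbered dishes did not deviate together (correlations of their deviations across genes from -0.0419 to 0.0258), and nothing in the labels pairs them. With the replicate block 0 genes had an adjusted p-value under 0.05, and 1430 higher and 459 lower genes, 2 NRF2 pathway genes and 17 higher and 1 lower genes of the lists had an unadjusted one.

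Leaving out each dish in turn gave 0 to 2 genes with an adjusted p-value under 0.05 (2 without control dish 2 and 1 without control dish 3), 1066 to 1625 higher and 330 to 513 lower genes by unadjusted p-value, 2 to 4 NRF2 pathway genes (4 without Opti-ELF-WMF dish 1), 1 to 3 without overlap, a pathway median of 0.0316 to 0.057, and 13 to 20 higher and 1 to 2 lower genes of the lists. Hmox1 ran from -0.0087 (without Opti-ELF-WMF dish 1) to 0.0438, and Slc7a11 from -0.0055 (without Opti-ELF-WMF dish 4; -0.0011 without control dish 1) to 0.1182. The depth is unknown, so the counting error of low genes such as Nqo1 and Slc7a11 cannot be given.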
